A study of Mus musculus with 4 samples.

Results

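The endothelial junction genes Cldn5, Ocln, Tjp1, Cdh5, Pecam1, Esam and Jam2, together with Plvap, a gene of the fenestral diaphragm, were followed in nuclei of the mouse brain. These 8 genes were taken by name from 31053 in the matrices. They were read in nuclei with at least 4 UMIs (unique molecular identifiers, 1 per captured transcript) summed over Flt1, Adgrl4 and Mecom, 3 genes of endothelial cells. This endothelial gate held 3944 of 74107 nuclei, and all nuclei below it are called other nuclei. The gate used none of the 8 genes.

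Single-nucleus RNA-seq was run on brain tissue labelled cortex or striatum from male C57BL/6J mice. An adeno-associated virus (AAV9) had been injected into their cisterna magna at 4 weeks of age, and the brains were taken at 8 weeks. AAV-VEGF-C delivered full-length mouse VEGF-C, a growth factor for lymphatic and blood vessel endothelium, and AAV-CTRL delivered a soluble part of VEGFR3 that does not bind it, so the control virus also made a secreted protein. For each virus the tissue of 5 mice was pooled, and the same mice gave both regions. There were 4 groups of 1 library each, and lists of 4 values give the cortex label first and the striatum label second, with AAV-CTRL before AAV-VEGF-C under each. No comparison has a replicate check, no test was run, and each difference describes a pair of libraries and not the treatment or the region.

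Brain endothelial cells are held together by tight junctions, in which claudins and occludin seal the cleft and ZO proteins tie them to actin, and by adherens junctions built on VE-cadherin. Immunoglobulin-type adhesion molecules such as PECAM-1, ESAM and the JAM proteins sit at the same contacts. Endothelium of the blood-brain barrier has tight junctions and few openings, whereas endothelium of the choroid plexus and circumventricular organs is fenestrated, and PLVAP forms the diaphragms of those fenestrae.

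Upstream sequences are shown for Cldn5, Ocln and Tjp1, the members for which an entry was available. These genes of the tight junction proper differed widely in how far they were restricted to gate nuclei. Whether the sequences bear on that was not tested. Each is the 250 bases before a RefSeq transcript start on GRCm38.p6, 5′ to 3′ on the strand of the gene, in lower case with the letters GGAA, the core of ETS factor sites, in capitals on either strand (TTCC on the other). Of the 8 genes, 3 had such an entry, with 4 entries in all.

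Cldn5 (chr16:18776597-18776846, plus strand): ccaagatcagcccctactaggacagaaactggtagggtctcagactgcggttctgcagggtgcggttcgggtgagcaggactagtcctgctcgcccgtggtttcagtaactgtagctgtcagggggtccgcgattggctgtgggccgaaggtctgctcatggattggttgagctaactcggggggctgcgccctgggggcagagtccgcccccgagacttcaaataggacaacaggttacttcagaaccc

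Ocln (chr13:100552719-100552968, minus strand): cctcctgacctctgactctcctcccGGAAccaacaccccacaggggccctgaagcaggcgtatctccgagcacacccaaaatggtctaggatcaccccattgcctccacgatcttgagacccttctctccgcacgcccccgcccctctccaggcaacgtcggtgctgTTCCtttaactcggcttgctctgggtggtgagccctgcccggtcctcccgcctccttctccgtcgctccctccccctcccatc

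Tjp1 (chr7:65371245-65371494, minus strand): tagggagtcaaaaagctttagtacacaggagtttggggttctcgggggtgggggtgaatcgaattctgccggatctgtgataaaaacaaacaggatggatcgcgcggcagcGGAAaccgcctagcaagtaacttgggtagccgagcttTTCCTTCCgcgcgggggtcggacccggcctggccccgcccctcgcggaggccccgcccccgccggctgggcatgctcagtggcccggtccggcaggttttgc

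GGAA or TTCC was found 0 times upstream of Cldn5, 2 times upstream of Ocln and 3 times upstream of Tjp1, and 93.4% of 32851 upstream windows of this length held it. The GC box GGGCGG, read on both strands, was found 1, 1 and 2 times, against 32.7% of windows with at least 1. None of the 3 windows shown held TATAAA (12.4% of windows), the E-box CACCTG (17.2%) or the forkhead letters TGTTTAC (3.17%). The GC content was 59.6%, 64.0% and 63.2%. The other Ocln entry (chr13:100552499-100552748), which overlaps the annotated gene for most of its length and is not shown, held GGAA or TTCC 1 time, the GC box 1 time and CACCTG 2 times, with a GC content of 69.2%. Cldn5 is a gene of 1 exon (chromosome 16, 18776847 to 18778262 on GRCm38), so its window ends at the annotated start of the gene, as that of Ocln does (chromosome 13, 100496507 to 100552718). The Tjp1 window lies inside the annotated gene (chromosome 7, 65296165 to 65527781), upstream of an internal start.

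The libraries held 17168, 20370, 23724 and 17466 barcodes with 63165470 to 78332657 UMIs each, and 4.49%, 5.95%, 7.95% and 4.31% of barcodes were called doublets and left out. Between 76 and 118 barcode sequences were shared by any pair of libraries, at most 0.658% of a library. Vegfc itself stood at 12.3, 11.98, 13.0 and 12.01 CPM (UMIs per 1000000 UMIs of the same nuclei), so a rise under the AAV-VEGF-C label was not detectable. Whether a vector transcript would be counted as Vegfc was not analysed here. Striatal neuron genes stood lower under the striatum label, with Ppp1r1b at 62.8 and 75.5 CPM in the libraries labelled cortex and 18.8 and 18.5 CPM in those labelled striatum. Slc17a7, a gene of cortical excitatory neurons, ran with the labels, at 419 and 459 CPM under the cortex label and 58.5 and 42.0 CPM under the striatum label. Marker genes thus went both ways, and regions are named here by label only.

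The gate held 814, 936, 1302 and 892 nuclei, or 4.96% (95% exact binomial interval, 4.64 to 5.31), 4.89% (4.58 to 5.20), 5.96% (5.65 to 6.28) and 5.34% (5.00 to 5.69) of the nuclei kept. Intervals throughout cover counting error only. A list of 12 further endothelial genes, such as Slco1a4 and Abcb1a, summed to 6923, 6362, 5878 and 5902 CPM in the gate and to between 107 and 129 CPM in nuclei of the neuron gate, and all 12 genes were detected in the gate of every library. Gate nuclei were not free of other RNA. Of them 59.0%, 55.0%, 31.9% and 36.1% also passed the neuron gate and 39.2%, 37.5%, 38.1% and 45.0% a pericyte or smooth muscle gate, both called mural. Markers of mural cells (6 of 6 detected) summed to 1273, 1363, 1078 and 1336 CPM, those of neurons (3 of 3) to 2069, 2237, 2721 and 2419 CPM, and haemoglobin genes (4 of 4) to 5399, 4282, 2249 and 3731 CPM. Lymphatic markers (5 genes) stayed at 30.6 to 58.0 CPM, with Mmrn1 and Ccl21a at 0 in the library labelled cortex AAV-VEGF-C. A median gate nucleus held 1945, 1973, 2007 and 2341.5 UMIs and a median other nucleus 2567, 2758, 2182 and 2585. Just inside the gate, with 4 or 5 UMIs of its genes, were 132, 170, 224 and 126 nuclei, and just outside, with 2 or 3, were 231, 210, 436 and 220.

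All 7 junction genes were higher in gate nuclei than in other nuclei of every library, and Plvap was not. A log2 ratio of at least 1 in all 4 libraries was reached by 7 of the 8 genes, against 12.6% of the 16466 genes with at least 50 UMIs in every library. Because the gate chose endothelial nuclei, this is a description of where each gene was found. In single libraries 20%, 18.9%, 16.8% and 17.5% of all genes passed the same size.

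Cldn5, the main claudin of brain endothelium, stood at 1722 (95% Poisson interval, 1672 to 1772), 1636 (1591 to 1681), 1298 (1263 to 1333) and 1422 (1383 to 1462) CPM in gate nuclei. In other nuclei it stood at 11.7, 9.40, 17.2 and 11.8 CPM, so the ratio was 148, 174, 75.4 and 121. The library labelled striatum AAV-CTRL had both the lowest level inside the gate and the highest outside it. Gate nuclei, about 5% of the nuclei, held 87.5%, 88.9%, 82.8% and 87.8% of all Cldn5 UMIs, and Cldn5 ranked between 5 and 12 of all genes by this ratio. A Cldn5 UMI was found in 85.9%, 87.0%, 77.6% and 86.1% of gate nuclei. In oligodendrocyte-gate nuclei, which should lack it, the share was 1.75%, 1.45%, 2.59% and 2.24%, at median depths of 1581, 1594, 1658.5 and 2007 UMIs. With every nucleus thinned to 1000 UMIs, which left out 22, 35, 70 and 11 gate nuclei, the shares in the gate were 73.6%, 73.3%, 63.6% and 72.3%, against 1.01% to 1.65% in oligodendrocyte-gate nuclei.

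Ocln encodes occludin, the other membrane protein of the tight junction in this set. It stood at 169 CPM (154 to 185), 154 CPM (141 to 169), 159 CPM (147 to 172) and 174 CPM (160.2 to 188) in gate nuclei and at 6.13, 5.57, 7.72 and 6.45 CPM in other nuclei. The ratio lay between 20.6 and 27.7, and the gate held 56.0% to 61.6% of all Ocln UMIs. Intervals of the 4 libraries overlapped, and no library stood apart.

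Tjp1 encodes ZO-1, the scaffold that binds claudins and occludin on the inner side of the membrane. It was the least restricted of the junction genes, at 813 (779 to 848), 753 (723 to 784), 755 (728 to 781) and 703 (676 to 731) CPM inside the gate and 367, 344, 331 and 311 CPM in other nuclei. The ratio was 2.19 to 2.28 in every library, and the gate held 9.13% to 12.7% of its UMIs. A UMI was found in 73.2%, 71.9%, 70.7% and 75.7% of gate nuclei and in 32.7% to 35.9% of oligodendrocyte-gate nuclei.

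Cdh5, which encodes VE-cadherin, the adhesive protein of endothelial adherens junctions, stood at 224 (206 to 243), 186 (171 to 201), 197 (183 to 211) and 201 (187 to 216) CPM inside the gate. Other nuclei had 2.83, 2.02, 5.68 and 4.198 CPM, and the ratio was 79.0, 91.9, 34.6 and 47.9. The libraries labelled cortex had the higher ratios and the lower levels in other nuclei, and in the gate the library labelled cortex AAV-CTRL stood above the other 3, with an interval apart from that of cortex AAV-VEGF-C only. The antisense gene Gm29682 overlaps Cdh5 and gave 17, 7, 11 and 15 UMIs in gate nuclei, against 597, 583, 813 and 718 of Cdh5. Whether counting used strand is not given in the sources used here.

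Pecam1, an adhesion receptor of endothelium, leukocytes and platelets, stood at 348 (326 to 371), 298 (279 to 318), 314 (297 to 332) and 326 (307 to 345) CPM inside the gate, against 7.17, 6.58, 9.53 and 8.60 CPM outside. Esam, an adhesion molecule of endothelial tight junctions, stood at 306 (285 to 328), 276 (258 to 295), 246 (231 to 261) and 248 (232 to 265) CPM, against 4.39, 4.39, 4.91 and 3.63 CPM outside. The ratio was 32.9 to 48.5 for Pecam1 and 49.99 to 69.7 for Esam. Both were highest in the gate of the library labelled cortex AAV-CTRL, and neither had an interval apart from all other libraries.

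Jam2, which encodes JAM-B, stood at 146 (132 to 162), 128 (115 to 141), 120.2 (109.9 to 131) and 112 (102 to 124) CPM inside the gate. Outside the gate it was at 13.1, 12.2, 25.9 and 24.3 CPM, the highest after Tjp1 of the junction genes. The ratio was 11.2 and 10.4 in the libraries labelled cortex and 4.65 and 4.62 in those labelled striatum, and the gate held 34.5%, 32.4%, 22.9% and 21.6% of its UMIs.

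Plvap was rare in all nuclei. In gate nuclei it gave 9, 12, 30 and 22 UMIs, which is 3.37 (1.54 to 6.41), 3.82 (1.97 to 6.67), 7.26 (4.90 to 10.4) and 6.16 (3.86 to 9.33) CPM. In other nuclei it stood at 4.85, 4.88, 6.66 and 7.65 CPM. The log2 ratio was −0.52 (−1.67 to 0.42), −0.35 (−1.32 to 0.47), 0.12 (−0.46 to 0.66) and −0.31 (−1.0 to 0.30), so the level in the gate could not be told from that outside it in any library. A Plvap UMI was found in 0.983%, 1.28%, 1.46% and 2.02% of gate nuclei and in 1.75%, 1.79%, 2.03% and 2.81% of other nuclei. In oligodendrocyte-gate nuclei the share was 0.540%, 0.208%, 0.888% and 0.905%. Thinned to 1000 UMIs, the shares were 0.631%, 0.333%, 0.649% and 0.795% in the gate and 0.574%, 0.422%, 0.716% and 0.753% outside. In thinned oligodendrocyte-gate nuclei they were 0.563%, 0.107%, 0.461% and 0.481%, below the gate in all 4 libraries. With 792, 901, 1232 and 881 thinned gate nuclei these shares stand for few nuclei, and the difference was not tested. Plvap (chromosome 8, 71497765 to 71511752, minus strand) overlaps Gtpbp3 on the plus strand, which stood at 8.25 to 13.4 CPM in the gate and 13.2 to 15.7 CPM outside. If strand was not used in counting, reads of the pair could not be told apart.

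**Figure D1:**
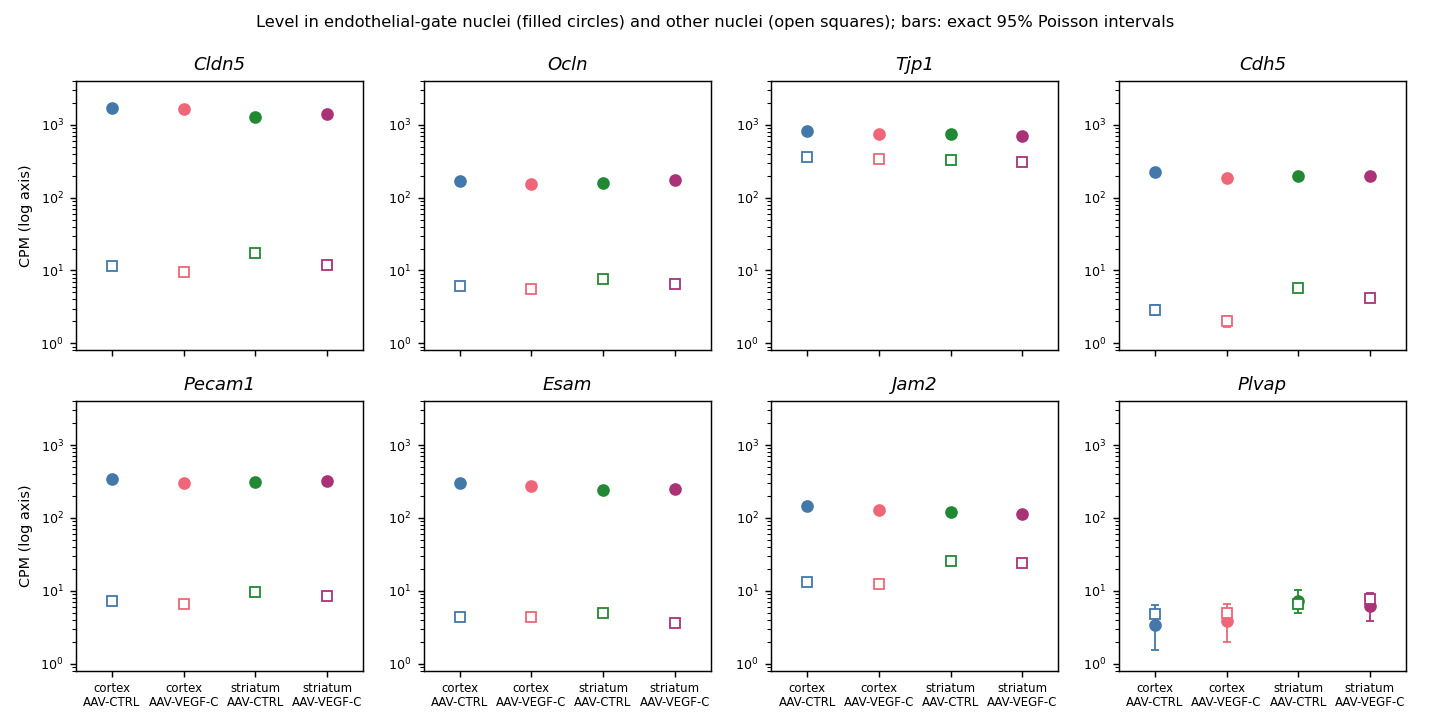
Level of each of the 8 genes in CPM on a log axis, in endothelial-gate nuclei (filled circles) and other nuclei (open squares) of the 4 libraries, with exact 95% Poisson intervals as bars. The circles lie above the squares in all 4 libraries for the 7 junction genes, least for Tjp1, whereas for Plvap circles and squares overlap.

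Compared per kilobase of annotated exon, Cldn5 stood far above the rest in gate nuclei, at 916 to 1216 CPM per kb. Esam (85.6 to 107) and Tjp1 (90.0 to 104) came next, followed by Pecam1 (47.8 to 55.9), Cdh5 (44.1 to 53.3), Ocln (36.6 to 41.1) and Jam2 (18.6 to 24.2), with Plvap at 1.70 to 3.65 CPM per kb. On this scale Esam and Tjp1 could not be ordered, since their ranges overlapped. The ranges of Pecam1 and Cdh5 overlapped too, although Pecam1 was the higher in each library. In CPM, Tjp1 (703 to 813) stood above Esam (246 to 306) in each library. Each UMI stands for 1 captured transcript in a 3′ library, and whether counts rise with gene length here was not tested. In a nuclear library part of the counts can come from introns, and whether introns were counted is not given in the sources used here. Scaled to the whole gene span, Tjp1 stood at 3.04 to 3.51 CPM per kb, near Pecam1 (3.09 to 3.61) and Ocln (2.75 to 3.09), while Esam stood at 24.0 to 29.9.

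Outside the gate, the junction genes differed in where they were found. Nuclei were placed in a class when they had at least 4 UMIs of exactly 1 of 11 other marker gates, which left 3505, 4134, 3384 and 3042 other nuclei in several gates. Pericyte-gate nuclei, 44, 37, 112 and 56 in number, had Cldn5 at 368 (233 to 553), 284 (162 to 461), 218 (152 to 303) and 393 (275 to 544) CPM. They had Esam at 208 (111 to 356), 231 (123 to 395), 168 (111 to 244) and 164 (91.7 to 270) CPM. Both genes were lower there than in endothelial-gate nuclei, with intervals apart in all 4 libraries for Cldn5 and in 0 of 4 for Esam. Whether these nuclei also carried endothelial RNA was not tested. Smooth muscle-gate nuclei numbered 7 to 28 per library, too few to place.

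Jam2 was also found in glia. OPC-gate nuclei had it at 86.2 (51.9 to 135), 77.1 (47.1 to 119), 87.9 (64.8 to 116) and 100.4 (75.9 to 130) CPM. Astrocyte-gate nuclei had 63.4 (47.9 to 82.3), 64.4 (50.9 to 80.5), 92.3 (82.8 to 103) and 86.2 (75.4 to 98.1) CPM, and microglia-gate nuclei 57.7 (36.2 to 87.4), 51.9 (32.9 to 77.9), 75.8 (52.2 to 107) and 62.8 (43.5 to 87.7) CPM. These 3 classes overlapped within each library. Oligodendrocyte-gate nuclei stood below them, at 6.40 to 13.6 CPM. In the OPC gate the interval met that of the endothelial gate in 4 of 4 libraries.

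Ocln was found again in 2 epithelial classes. Choroid plexus-gate nuclei, 11 to 24 per library, had it at 121 (48.5 to 249), 97.6 (35.8 to 212), 119.7 (48.1 to 247) and 30.7 (0.776 to 171) CPM, and ependymal-gate nuclei, 6 to 40 per library, at 169 (34.9 to 495), 67.2 (1.70 to 375), 70.03 (25.7 to 152) and 138 (37.6 to 353) CPM. Neuron-gate nuclei had 4.67 to 5.05 CPM. Cdh5 was next highest in fibroblast-gate nuclei, which had 154 (56.4 to 334), 44.6 (5.40 to 161), 95.02 (66.6 to 132) and 106 (56.5 to 181) CPM. Pecam1, a gene of myeloid cells too, was at 42.0, 42.9, 39.1 and 40.6 CPM in microglia-gate nuclei, where the 4 libraries were alike.

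Tjp1 was spread over all the larger classes. Astrocyte-gate nuclei had it at 556 (507 to 607), 505 (465 to 547), 359 (340.3 to 379) and 339 (317 to 362) CPM, neuron-gate nuclei at 369.5, 344.6, 344.5 and 323.6 CPM, and microglia-gate nuclei, the lowest of the larger classes, at 178 to 231 CPM. In astrocyte-gate nuclei Tjp1 was higher in both libraries labelled cortex than in both labelled striatum, with intervals apart. Plvap was low in every class. Neuron-gate nuclei had 5.31 (4.62 to 6.08), 5.57 (4.92 to 6.29), 7.74 (6.87 to 8.70) and 9.56 (8.56 to 10.6) CPM, and of other nuclei with a Plvap UMI 92.7%, 96.3%, 80.5% and 83.8% passed the neuron gate, as did 80.8%, 80.1%, 56.8% and 61.6% of all other nuclei. Choroid plexus-gate nuclei, where fenestrated vessels lie close by, gave 0, 0, 0 and 1 Plvap UMIs in 21, 24, 22 and 11 nuclei, and the upper ends of their intervals were 63.6, 60.01, 63.1 and 171 CPM, too wide to place Plvap there.

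**Figure D2:**
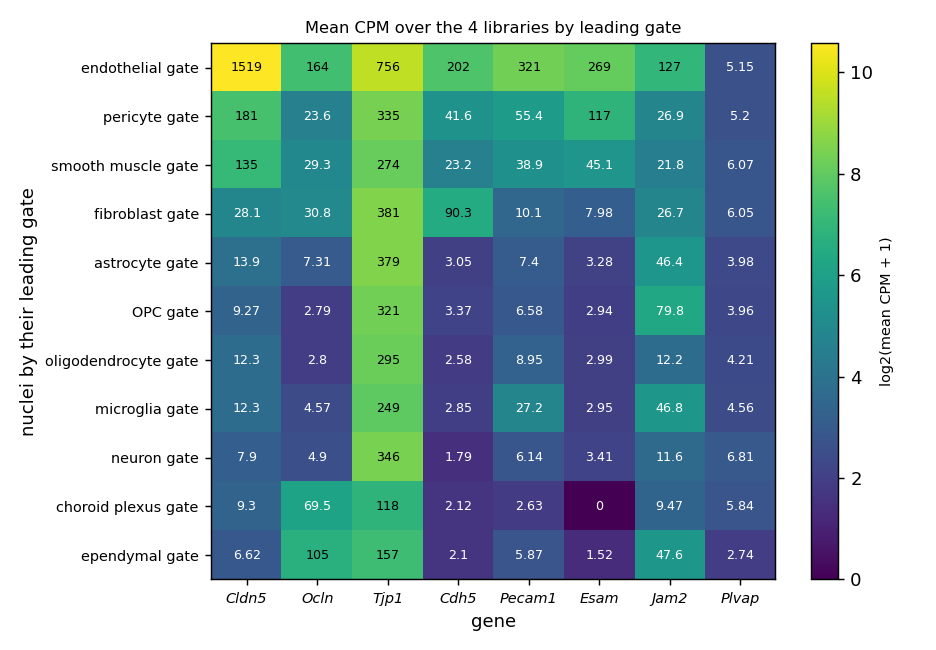
Mean level of each gene over the 4 libraries, in CPM as printed in each cell and coloured by log2(mean CPM + 1), with nuclei placed by their leading marker gate, which also places nuclei that pass several gates. Cldn5 and Esam are next highest in the pericyte row (181 and 117 CPM), Cdh5 in the fibroblast row (90.3), Jam2 in the OPC row (79.8) and Ocln in the ependymal row (105), while Tjp1 is at 118 CPM or more in all rows and Plvap is between 2.74 and 6.81 CPM in all.

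The plot of levels by class places nuclei by the gate with the highest UMI count relative to its library mean, a rule chosen after the data were seen. It moved the pericyte level of Cldn5 from a mean of 316 to 181 CPM and that of Esam from 193 to 117 CPM, and the astrocyte level of Jam2 from 76.6 to 46.4 CPM. Tjp1 moved the other way in small classes, from 44.7 to 118 CPM in choroid plexus-gate and from 96.4 to 157 CPM in ependymal-gate nuclei, where the lower values rest on 0 to 7 UMIs per library. By mean over libraries, the class that ranked second to the endothelial gate was the same under both rules for Cldn5, Ocln, Cdh5, Pecam1, Esam and Jam2.

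The 7 junction genes were seen together in gate nuclei. With nuclei thinned to 1000 UMIs, a median of 2 of the 7 was detected per gate nucleus and 0 per other nucleus in every library. At least 3 of the 7 were detected in 42.4%, 38.5%, 39.1% and 42.3% of gate nuclei and in 0.200%, 0.177%, 0.272% and 0.201% of other nuclei. None was detected in 7.45%, 7.88%, 15.0% and 9.08% of gate nuclei, so the share without any was highest in the library labelled striatum AAV-CTRL.

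Across 48 points (12 gates in 4 libraries, which share library and depth), genes were ranked by Pearson's r with each member on log2(CPM + 1), over 17389 genes, as a description. The gene most like Cldn5 was Ly6a (r = 0.89), followed by Podxl (0.88) and Edn1 (0.82). The most like Esam was Gkn3 (0.90), like Cdh5 Apcdd1 (0.87), like Pecam1 Abcb1a (0.86) and like Ocln Wwtr1 (0.83). Lower values were found for Tjp1 (Ica1, 0.77), Jam2 (Dhrs7, 0.72) and Plvap (Dph1, 0.68), the genes spread over several classes.

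In gate nuclei that also passed a mural gate, Cldn5 stood at 2028, 1932, 1593 and 1573 CPM, against 1237, 1213, 949 and 1145 CPM in those that did not. The log2 ratio was 0.71 (0.62 to 0.81), 0.67 (0.58 to 0.76), 0.75 (0.67 to 0.83) and 0.46 (0.37 to 0.55). Of the 7 junction genes 4 (Cldn5, Cdh5, Pecam1 and Esam) were higher in mural-gate nuclei with an interval above 0 in all 4 libraries, against 11.1% of all genes, and with Tjp1 5 of 7 had one in at least 3 libraries (14.8%). In the library labelled cortex AAV-CTRL all 12 further endothelial genes were higher too, from 0.15 (−0.15 to 0.46) for Erg to 0.84 (0.71 to 0.96) for Ptprb. Mural-gate nuclei were also deeper. In that library 319 of them held 1632373 UMIs, and the 495 gate nuclei without a mural gate held 1034373. The part of depth in these differences was not tested. Plvap went the other way from the junction genes, at 1.84, 3.25, 4.47 and 3.47 CPM with a mural gate and 5.80, 4.63, 10.5 and 11.1 CPM without. Its interval lay below 0 in both libraries labelled striatum. Counted as nuclei, 3 of 8, 6 of 12, 8 of 19 and 5 of 18 Plvap-positive gate nuclei passed a mural gate. Of all gate nuclei 39.2%, 37.5%, 38.1% and 45.0% did. In the library labelled striatum AAV-CTRL 3 nuclei held 3, 3 and 8 of the 30 Plvap UMIs, and UMIs of the same nucleus are not independent.

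Gate nuclei that passed the neuron gate had lower levels. Cldn5 stood at 1681, 1486, 969 and 1035 CPM in them and at 1821, 1975, 1594 and 1874 CPM in the rest, with log2 ratios of −0.12 (−0.21 to −0.02), −0.41 (−0.49 to −0.33), −0.72 (−0.80 to −0.64) and −0.86 (−0.94 to −0.78). Cldn5 and Esam were lower with an interval below 0 in all 4 libraries (1.83% of all genes), and all 7 in at least 3 of 4 (7.01%). The log2 ratio was further below 0 under the striatum label than under the cortex label with the same virus for Cldn5, Ocln, Cdh5, Pecam1 and Esam.

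A subset of gate nuclei had neither a Flt1 nor an Adgrl4 UMI and passed through Mecom alone, 18, 18, 140 and 26 nuclei. In them Cldn5 stood at 15.8 (1.92 to 57.1), 67.9 (24.9 to 148), 14.6 (5.88 to 30.1) and 7.95 (0.963 to 28.7) CPM. The interval met that of other nuclei in 3 libraries and lay above it in cortex AAV-VEGF-C, where other nuclei had 9.40 CPM (8.69 to 10.2). Their leading genes were not endothelial. In the libraries labelled cortex these were Ttr, Otx2os1 and Htr2c among the first 6, and 14 of 18 and 13 of 18 of the nuclei passed the choroid plexus gate. In the library labelled striatum AAV-CTRL they were Aox2, Cyp2a5, Cyp2g1 and Abca13, and in that labelled striatum AAV-VEGF-C 1700007G11Rik, Tmem212, Mup4 and Dnah12. The 12 further endothelial genes summed to 490, 815, 228 and 254 CPM there, against 5878 to 6923 CPM in the whole gate. A gate on Flt1 and Adgrl4 alone, again at 4 UMIs and chosen after the data were seen, held 729, 829, 1039 and 806 nuclei, with Cldn5 at 1851, 1746, 1534 and 1591 CPM. In the comparisons of gate nuclei by AAV and by region label, results of the 8 genes are given with both gates where they differ.

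**Figure D3:**
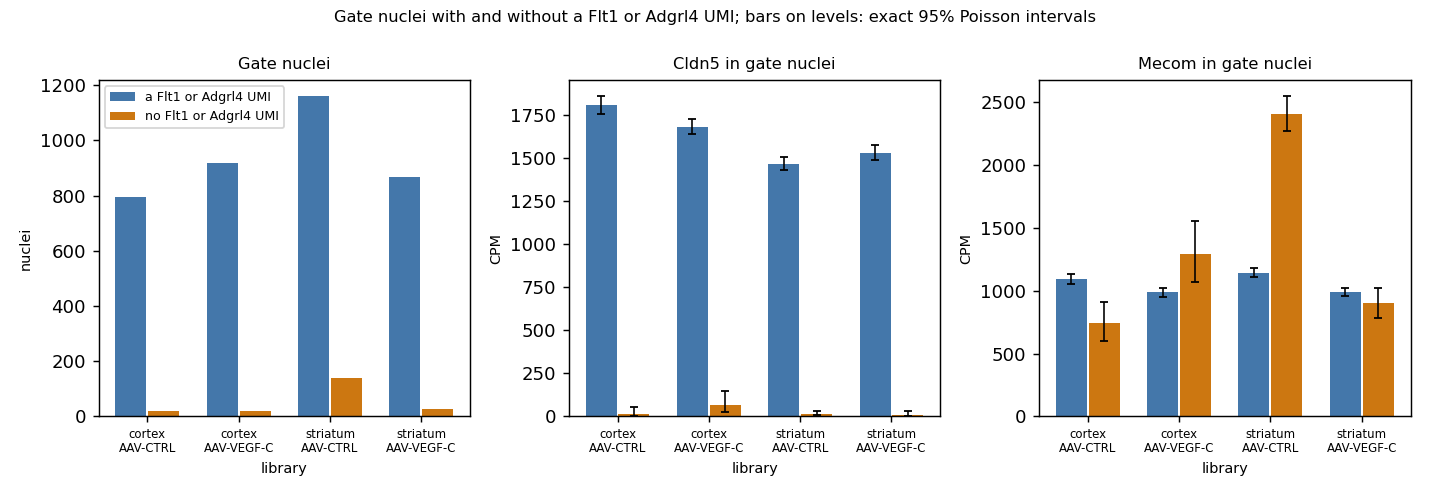
Gate nuclei with (blue) and without (orange) a Flt1 or Adgrl4 UMI in each library, as the number of nuclei and as the level in CPM of Cldn5 and of Mecom, with exact 95% Poisson intervals on the levels. The subset without is largest in the library labelled striatum AAV-CTRL (140 nuclei), and its Cldn5 level is at most 67.9 CPM in any library, while Mecom reaches 2406 CPM.

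Among gate nuclei with arterial markers (138, 119, 173 and 112 nuclei), venous markers (221, 291, 381 and 270) or capillary markers alone (200, 226, 285 and 199), Cldn5 and Tjp1 differed in at least 3 libraries. Cldn5 stood at 1646, 1415, 1221 and 1426 CPM in arterial-marker nuclei, 1664, 1799.7, 1577 and 1672 CPM in capillary-marker nuclei and 1836, 1822, 1466 and 1726 CPM in venous-marker nuclei. Arterial over capillary, its log2 ratio was −0.02 (−0.18 to 0.15), −0.35 (−0.51 to −0.18), −0.37 (−0.53 to −0.21) and −0.23 (−0.40 to −0.06). Cldn5 was thus lower in arterial-marker nuclei in 3 of 4 libraries, 1 of 7 junction genes, against 0.829% of all genes.

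Tjp1 stood at 681, 676, 638 and 634 CPM in arterial-marker nuclei, 774, 825, 835 and 726 CPM in capillary-marker nuclei and 900.2, 929.9, 861 and 884 CPM in venous-marker nuclei. Venous over capillary, it was higher with an interval above 0 in 3 of 4 libraries (0.22, 0.17, 0.04 and 0.28 on the log2 scale), against 4.15% of all genes. Venous over arterial, both Cldn5 (0.16, 0.37, 0.26 and 0.28) and Tjp1 (0.40, 0.46, 0.43 and 0.48) had an interval above 0 in all 4 libraries, 2 of 7 junction genes against 1.63% of all genes. Ocln, Cdh5, Pecam1, Esam and Jam2 gave 37 to 113 UMIs each in the arterial-marker nuclei of a library, and none of them had an interval away from 0 the same way in 3 libraries. Venous-marker nuclei were deeper (medians of 2458 to 2563 UMIs, against 1611 to 1889 for capillary-marker nuclei), and 46.7% to 49.3% of them passed a mural gate, against 18.1% to 28.6%, and the part of either in these differences was not tested. Where a segment needed at least 2 UMIs of its list, 1 gene differed venous over arterial in at least 3 libraries and 0 genes in either comparison with capillary-marker nuclei. Plvap gave 18 of its 30 UMIs in venous-marker nuclei of the library labelled striatum AAV-CTRL and 0 to 5 in those of the other 3. The 18 UMIs lay in 7 of 381 venous-marker nuclei. In that library 3 of 173 arterial-marker and 1 of 285 capillary-marker nuclei had a Plvap UMI. Because 3 gate nuclei there held 3, 3 and 8 Plvap UMIs, the UMI count does not place Plvap in a segment.

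AAV-VEGF-C was compared with AAV-CTRL within each region label, the question being whether the junction genes of brain endothelium differed with VEGF-C delivery. Differences were small under both labels. No member reached a log2 ratio of 0.58 either way, the size the study's methods use, against 4.43% of all genes under the cortex label and 6.84% under the striatum label.

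Under the cortex label, all 7 junction genes with at least 50 UMIs were lower in the AAV-VEGF-C library, and 5 of them had an interval below 0. Of all 11618 genes 12.7% had an interval away from 0 and 6.73% one below it. The log2 ratio was −0.07 (−0.13 to −0.02) for Cldn5, −0.11 (−0.20 to −0.03) for Tjp1, −0.27 (−0.44 to −0.10) for Cdh5, −0.22 (−0.36 to −0.09) for Pecam1 and −0.15 (−0.29 to −0.01) for Esam. For Ocln it was −0.13 (−0.32 to 0.06) and for Jam2 −0.20 (−0.40 to 0.01), whose intervals reached 0. The median of the 7 was −0.15 and that of all genes −0.01. The largest of these, Cdh5, was at 224 CPM in the AAV-CTRL library and 186 CPM in the AAV-VEGF-C library. These counts changed with the nuclei and UMIs used: 3 of 7 had an interval away from 0 with mural-gate nuclei left out and 0 with nuclei thinned to 1000 UMIs. With nuclei that passed no other gate, 1 had one and the ratio was above 0 for Cldn5 (0.081), Tjp1 (0.24), Esam (0.11) and Jam2 (0.16). Each of these sets also held fewer UMIs than the whole gate, and the part of that in the changed counts was not tested.

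Under the striatum label the signs were mixed. Cldn5 was higher in the AAV-VEGF-C library, at 1422 against 1298 CPM, with a log2 ratio of 0.13 (0.08 to 0.19), and Tjp1 was lower, at 703 against 755 CPM, with a ratio of −0.10 (−0.18 to −0.03). These 2 of the 8 genes had an interval away from 0, against 21.9% of all 12790 genes (8.8% above 0 and 13% below). Ocln was at 0.12 (−0.04 to 0.28), Cdh5 at 0.03 (−0.12 to 0.18), Pecam1 at 0.05 (−0.06 to 0.17), Esam at 0.02 (−0.12 to 0.15) and Jam2 at −0.10 (−0.29 to 0.09). The median of the 8 was 0.02 and that of all genes −0.04.

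The Cldn5 difference under the striatum label was smaller without the Mecom-only nuclei, of which the AAV-CTRL library had 140 and the AAV-VEGF-C library 26. With only those left out, Cldn5 stood at 1466 CPM (1427 to 1506) in the AAV-CTRL library. In the AAV-VEGF-C library it then stood at 1529 CPM (1487 to 1572). The gate on Flt1 and Adgrl4 alone also leaves out gate nuclei with fewer than 4 of these UMIs. With the gate on Flt1 and Adgrl4 alone, the log2 ratio of Cldn5 was 0.05 (−0.00 to 0.11) under the striatum label and −0.08 (−0.14 to −0.03) under the cortex label. With that gate 6 of the junction genes had an interval away from 0 under the cortex label (12.7% of all genes) and 1 under the striatum label (18.8%). Tjp1 was the only member with an interval below 0 under both labels, as 1.27% of all genes had, and it stayed so with this gate, at −0.15 and −0.16. With mural-gate nuclei left out, however, Tjp1 was at 0.15 (0.01 to 0.29) and 0.10 (−0.04 to 0.23), so its direction turned. The mural share of the gate was 39.2% and 37.5% under the cortex label and 38.1% and 45.0% under the striatum label.

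Plvap was at 0.18 (−1.19 to 1.60) under the cortex label, from 9 and 12 UMIs, and at −0.24 (−1.10 to 0.61) under the striatum label, from 30 and 22 UMIs. A difference of up to 3.04-fold higher or to 0.438 of the AAV-CTRL level lay within the cortex interval, so no difference was detectable at this depth.

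**Figure D4:**
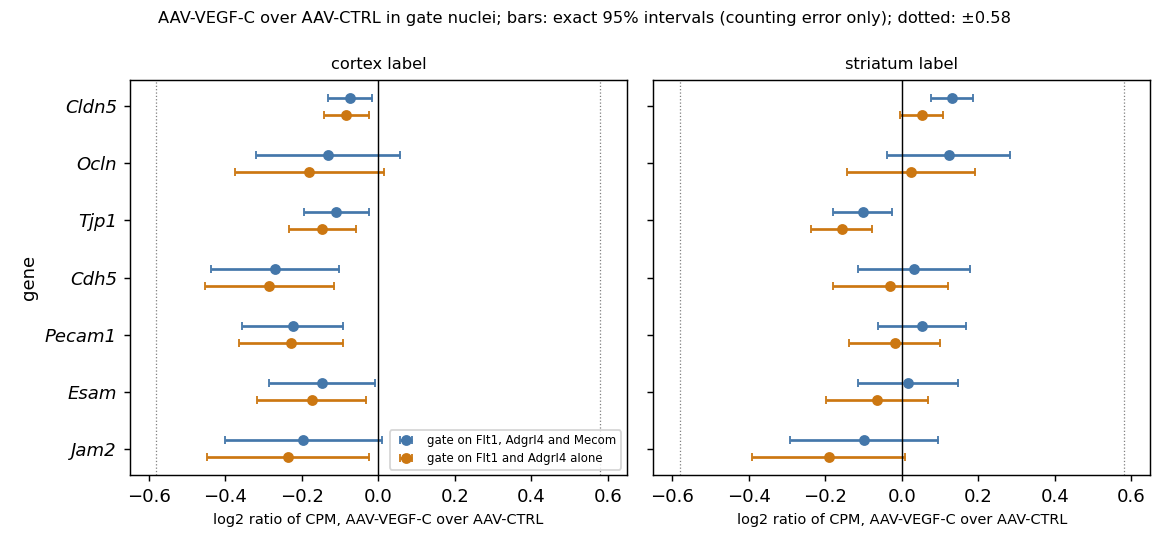
Log2 ratio of CPM, AAV-VEGF-C over AAV-CTRL, for the 7 junction genes in gate nuclei under the cortex label (left) and the striatum label (right), with the gate on Flt1, Adgrl4 and Mecom (blue) and on Flt1 and Adgrl4 alone (orange), exact 95% intervals as bars, and dotted lines at 0.58 either way. Under the cortex label all points lie below 0, none past 0.58, and under the striatum label the blue Cldn5 point at 0.13 moves to 0.05 with the second gate.

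Outside the gate, Cldn5 was lower in the AAV-VEGF-C library under both labels, at −0.31 (−0.47 to −0.15) and −0.55 (−0.69 to −0.41), and so was Cdh5, at −0.49 (−0.83 to −0.15) and −0.44 (−0.67 to −0.20). These are levels of 2.02 to 17.2 CPM in nuclei of all kinds. For Plvap the ratio outside the gate was 0.01 (−0.23 to 0.25) under the cortex label and 0.20 (0.01 to 0.39) under the striatum label.

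Of 33 further junction genes, 30 had enough UMIs to compare gate with other nuclei in all 4 libraries. Of these, 19 were higher in the gate with an interval above 0 in all 4 (27.7% of all genes), 15 of them with a log2 ratio of at least 1 (12.6%), and 5 were lower in all 4 (19.3% of all genes). The 5 with the highest ratios were Icam2, an adhesion molecule of endothelium and leukocytes (95.6, 106, 69.7 and 78.4 CPM in the gate, 0.570 to 1.41 outside), Lsr, a protein of contacts between 3 cells (179, 148, 139 and 140.0 CPM, 2.63 to 5.39 outside), the gap junction gene Gja4 (37.5, 50.9, 31.9 and 43.7 CPM, 1.12 to 1.68 outside), Cgnl1, which encodes paracingulin (325, 303, 276 and 272 CPM, 7.22 to 18.8 outside), and Arhgef15 (99.4, 75.8, 93.9 and 89.9 CPM, 8.68 to 14.5 outside). The genes lower in the gate in all 4 were Cldn11, Jam3, Cdh2, Nectin1 and Ildr2, named here after their values were seen.

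In the AAV comparison, 26 of the 33 passed the minimum of 50 UMIs under the cortex label, of which 2 had an interval above 0 (5.98% of all genes) and 6 below (6.73%), with a median of −0.11 against −0.01 for all genes. Under the striatum label 29 passed, of which 3 were above (8.8% of all genes) and 6 below (13%), with a median of −0.04 against −0.04. Gja4, a connexin of arterial endothelium, was higher under both labels, at 0.44 (0.07 to 0.82) and 0.45 (0.11 to 0.80), where 1.55% of all genes were. Pard3, a polarity protein of junctions, was lower under both, at −0.18 (−0.33 to −0.04) and −0.32 (−0.44 to −0.21), and Amotl2 had opposite signs, at −0.49 (−0.83 to −0.14) and 0.51 (0.19 to 0.82). Values of the 33 genes are given for the gate on Flt1, Adgrl4 and Mecom alone. Under the striatum label it held 140 Mecom-only nuclei in the AAV-CTRL library and 26 in the AAV-VEGF-C library. Their part in these values was not tested.

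By region label, all 7 junction genes were lower in gate nuclei under the striatum label within AAV-CTRL. Within AAV-VEGF-C, 4 were lower and 3 higher. Within AAV-CTRL, striatum over cortex, the log2 ratio was −0.41 (−0.46 to −0.35) for Cldn5, −0.11 (−0.19 to −0.03) for Tjp1, −0.19 (−0.34 to −0.03) for Cdh5, −0.15 (−0.27 to −0.03) for Pecam1, −0.32 (−0.45 to −0.18) for Esam and −0.28 (−0.48 to −0.09) for Jam2. These 6 of 7 had an interval below 0, against 13.2% of all genes below and 34.2% away from 0, and Ocln was at −0.09 (−0.26 to 0.09). The median of the 7 was −0.19 while that of all genes was 0.07. With nuclei that passed no other gate 1 gene had an interval away from 0, Cldn5 at −0.26 (−0.41 to −0.11), and with mural-gate nuclei left out 3 had, where Pecam1 was at 0.0037. Plvap, at 9 and 30 UMIs, was at 1.10 (−0.01 to 2.36). With the gate on Flt1 and Adgrl4 alone 3 of the 8 genes were away from 0 (29.3% of all genes), namely Cldn5 at −0.27 (−0.33 to −0.21), Esam at −0.18 (−0.32 to −0.05) and Plvap, still under 50 UMIs, at 1.21 (0.09 to 2.47).

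Within AAV-VEGF-C, Cldn5 was at −0.20 (−0.26 to −0.15), Tjp1 at −0.10 (−0.18 to −0.02) and Esam at −0.15 (−0.29 to −0.02), and Pecam1 was higher under the striatum label, at 0.13 (0.00 to 0.25). These 4 of 7 had an interval away from 0, against 28.9% of all genes (17.4% above 0 and 11.5% below). Cldn5, Tjp1 and Esam were below 0 within both AAV labels, where 6.68% of all genes were. The Tjp1 difference was not seen with the gate on Flt1 and Adgrl4 alone (−0.01 and −0.02), whereas Cldn5 was lower there too, at −0.27 and −0.13. Within AAV-VEGF-C that gate had 4 genes away from 0 (25.2% of all genes), Cldn5 below and Ocln (0.23), Cdh5 (0.18) and Pecam1 (0.18) above.

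Outside the gate several genes were higher under the striatum label. Cdh5 stood at a log2 ratio of 1.004 (0.73 to 1.28) within AAV-CTRL and 1.06 (0.75 to 1.37) within AAV-VEGF-C, and Jam2 at 0.98 (0.86 to 1.11) and 0.99 (0.87 to 1.11). Fewer nuclei of a class and less RNA per nucleus cannot be told apart in these sums, since classes differed in number between labels: fibroblast-gate nuclei, where Cdh5 was high, numbered 21 and 20 under the cortex label and 205 and 52 under the striatum label, and astrocyte-gate nuclei, where Jam2 was high, 453 and 615 against 1958 and 1221.

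Plvap was then followed nucleus by nucleus, to see whether its few UMIs lay in nuclei with or without barrier genes. Among gate nuclei 8, 12, 19 and 18 had a Plvap UMI, 57 in all, and 51 of them had exactly 1. Of those 51, 34 (66.7%) had a Cldn5 UMI, against 83.5% of the gate.

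The 6 gate nuclei with 2 or more Plvap UMIs came from 3 libraries, with 1 from cortex AAV-CTRL and, under the striatum label, 3 from AAV-CTRL and 2 from AAV-VEGF-C, and are described after their values were seen. They held 2, 3, 3, 8, 2 and 4 Plvap UMIs among 1283, 4174, 17008, 19235, 3689 and 2273 in all. None of the 6 had a Cldn5 UMI, and none had a UMI of Mfsd2a, a lipid transporter of barrier endothelium. Other barrier genes were present, with Slco1a4 in 3 of the 6 and Ocln, Slc2a1 and Abcb1a in 2 each. All 6 had Flt1 and Adgrl4, and 5 had Pecam1. Exoc3l2 and Plpp1, genes of fenestrated endothelium, were each found in 5 of the 6. Of the other genes listed for fenestrated endothelium, Plpp3 was found in 6, Nrp1 in 5 and Esm1 in 1. The shares of all gate nuclei with these listed genes, or with Mfsd2a, are not given here. The deepest of the 6 held 17008 and 19235 UMIs, against gate medians of 1945 to 2341.5. These counts alone thus do not mark the 6 as fenestrated. Ttr, the leading transcript of choroid plexus epithelium, gave 25, 1, 1344, 1482, 540 and 0 UMIs, so 3 of the nuclei held it in large amounts. Other nuclei with 2 or more Plvap UMIs numbered 1, 7, 15 and 15.

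Across the gate, nuclei with a Plvap UMI were low in barrier genes in 3 of the 4 libraries. Of a list of 14 barrier genes, 10 were lower in Plvap-positive than in Plvap-negative nuclei with an interval below 0 in at least 3 of 4 libraries, against 1.01% of all genes with at least 10 UMIs. These were Cldn5, Mfsd2a, the glucose transporter gene Slc2a1, the efflux pump genes Abcb1a and Abcg2, the anion transporter gene Slco1a4, the amino acid transporter genes Slc7a1 and Slc7a5, Itm2a, and Lef1, a transcription factor of Wnt signalling. Cldn5 stood at 2604, 627, 737 and 682 CPM in Plvap-positive nuclei and at 1705, 1668, 1319 and 1439.9 CPM in Plvap-negative ones, so the library labelled cortex AAV-CTRL, with 8 positive nuclei, went the other way. Of 5 fenestrated genes, 2 were higher in 3 of 4 libraries, Exoc3l2 and Plpp1 (0.638% of all genes). Plpp1 stood at 125, 134, 174 and 200 CPM against 59.6, 48.3, 60.6 and 69.7 CPM, with an interval above 0 in all but the library labelled cortex AAV-CTRL. Exoc3l2 gave 0, 2, 4 and 3 UMIs in Plvap-positive nuclei and 5, 4, 5 and 4 in all the others. Plvap-positive nuclei were deeper, with medians of 2048.5, 4912.5, 4174 and 3859.5 UMIs against 1945, 1959, 1994 and 2330.5. With nuclei thinned to 1000 UMIs before Plvap was read, 0 of the 14 and 0 of the 5 genes passed. Of thinned gate nuclei only 0.631%, 0.333%, 0.649% and 0.795% had a Plvap UMI, so few positive nuclei were left in which a gene could pass. The part of depth was not tested.

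The gate was also split by Cldn5, a split chosen after the data were seen. Gate nuclei without a Cldn5 UMI numbered 115, 122, 291 and 124, or 14.1%, 13.0%, 22.4% and 13.9%, and 16, 15, 135 and 24 of them were among the nuclei with no Flt1 or Adgrl4 UMI. Leaving those out, the Plvap level of Cldn5-negative nuclei was 17.1 (3.52 to 49.9), 12.5 (3.41 to 32.0), 40.3 (23.5 to 64.5) and 26.5 (13.3 to 47.5) CPM. That of Cldn5-positive nuclei was 2.54 (0.931 to 5.52), 2.19 (0.805 to 4.78), 3.71 (1.92 to 6.48) and 3.10 (1.42 to 5.88) CPM. The log2 ratio was 2.75 (0.12 to 4.98), 2.51 (0.24 to 4.59), 3.44 (2.29 to 4.64) and 3.10 (1.69 to 4.55), above 0 in all 4 libraries, where 2.2% of genes with at least 10 UMIs were. These levels rest on 3, 4, 17 and 11 UMIs, and 14 of the 17 came from the 3 nuclei named above. Counted as nuclei, 2 of 99, 4 of 107, 6 of 156 and 7 of 100 Cldn5-negative nuclei had a Plvap UMI, or 2.02%, 3.74%, 3.85% and 7.0%, against 0.861%, 0.740%, 1.19% and 1.17% of Cldn5-positive nuclei. The binomial intervals were apart only in the library labelled striatum AAV-VEGF-C.

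The other junction genes were lower in the Cldn5-negative nuclei. Ocln, Tjp1, Cdh5, Pecam1 and Esam had an interval below 0 in all 4 libraries, 5 of the 6 other junction genes against 5.43% of all genes, and all 6 had one in at least 3 (10.6%). This was not particular to junction genes. Over the whole gate, Mecom-only nuclei included, each of the 12 further endothelial genes had an interval below 0 in all 4 libraries. Among them, Slco1a4 was at −1.21, −1.51, −2.29 and −2.57. Over the same whole gate, Esam was at −1.33 (−1.84 to −0.87), −1.77 (−2.29 to −1.29), −2.69 (−3.18 to −2.24) and −3.34 (−4.08 to −2.69), further below 0 than Slco1a4 in each library. With the Mecom-only nuclei left out, Esam was at −0.57 (−1.07 to −0.10), −1.43 (−1.96 to −0.95), −1.67 (−2.16 to −1.21) and −2.70 (−3.44 to −2.05). Cldn5-negative nuclei were shallower, with medians of 1393, 1402, 1572 and 1511 UMIs against 2051, 2056, 2015.5 and 2375.5, and over the whole gate 6.09%, 12.3%, 18.2% and 20.2% of Cldn5-negative nuclei passed a mural gate against 44.6%, 41.3%, 43.8% and 49.0% of Cldn5-positive ones, and the part of either in these differences was not tested. Of the other 7 genes, Plvap alone was higher in them, in all 4 libraries.

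**Figure D5:**
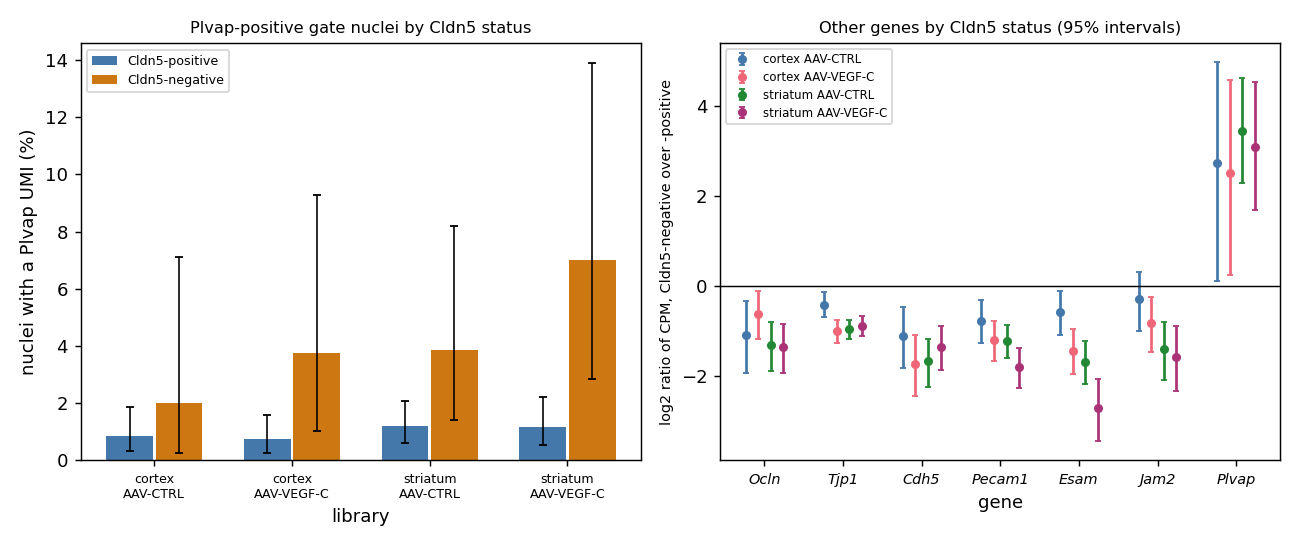
Left, percent of gate nuclei with a Flt1 or Adgrl4 UMI that had a Plvap UMI, by whether a Cldn5 UMI was found, with exact 95% binomial intervals. Right, log2 ratio of CPM in Cldn5-negative over Cldn5-positive nuclei for the other 7 genes in the 4 libraries, with exact 95% intervals. Plvap lies above 0 in all 4 libraries (2.51 to 3.44), and the junction genes lie below it.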

How the data were processed

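Single-nucleus libraries had been prepared with 10x 3′ chemistry. The authors' deposited filtered matrices hold UMI counts per gene and nucleus, not normalized, made with Cell Ranger on mm10 (version 5.1.1 per the labels and 5.0.1 per the file headers). Their later filters, normalization and clustering were not applied here, and whether introns or strand were counted is not given in the sources used here. The members and gene lists were chosen with earlier results of these data known.

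Doublets were called per library with Scrublet (scanpy 1.11.5, expected share 8%) and left out. Counts were summed per library and set of nuclei and divided by the set's total (CPM). Levels carry exact Poisson intervals, ratios exact conditional binomial intervals and shares Clopper-Pearson intervals, all at 95%. Ratios across genes needed at least 50 UMIs in the pair, or at least 10 in the splits by Plvap. The ratio intervals were checked on simulated counts. All 8 genes were named, as were listed genes with an interval away from 0 the same way under both region labels or in at least 3 of 4 libraries, the 5 junction genes with the highest ratios, and the 3 genes most like each member. Chosen after seeing the data were the gate on Flt1 and Adgrl4 alone, leaving out mural-gate nuclei, placing nuclei by leading gate, the split by Cldn5 and the list of nuclei with at least 2 Plvap UMIs.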

Additional observations from a re-analysis of the deposited data

Results flagged for a closer look

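Cldn5 in gate nuclei had intervals on opposite sides of 0 under the 2 region labels. AAV-VEGF-C over AAV-CTRL, its log2 ratio was −0.074 (−0.13 to −0.02) under the cortex label and 0.13 (0.08 to 0.19) under the striatum label. With 1 library per group the difference between the labels was not tested. With the gate on Flt1 and Adgrl4 alone the striatum value was 0.05 (−0.00 to 0.11).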

How the results depend on the processing

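No paired analysis was possible because each group held 1 library, and for the same reason leaving out a replicate gives no value. Of 105 alternative values of counts and shares, 74 were close to the reported value and 31 moved; of 680 values of single genes, 458 were close, 213 moved and 9 changed sign. The cause of these shifts was not tested.

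The AAV count under the cortex label (5 of the genes with an interval away from 0) was 3 with a gate of 2 UMIs, 1 with nuclei of the endothelial gate only, 0 with thinned nuclei and 3 with mural-gate nuclei left out. Under the striatum label (2 genes) it was 5 with all barcodes kept and 1 with a gate of 2 UMIs, with thinned nuclei, with the gate on Flt1 and Adgrl4 alone and with scaling by the median log ratio. With nuclei of the endothelial gate only, the log2 ratio changed sign for Cldn5 (0.081), Tjp1 (0.24) and Esam (0.11) under the cortex label and for Tjp1 (0.14) under the striatum label. Tjp1 under the cortex label was also above 0 with thinned nuclei (0.022), with a mean of CPM over nuclei (0.0069) and without mural-gate nuclei (0.15), the last also under the striatum label (0.10). Over genes with at least 1 UMI, 8.06% and 14.5% of all genes had an interval away from 0.

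The region count within AAV-CTRL (6 genes) was 1 with nuclei of the endothelial gate only, 3 without mural-gate nuclei, where Pecam1 changed sign to 0.0037, and 3 with the gate on Flt1 and Adgrl4 alone. Within AAV-VEGF-C (4 genes) it was 2 with a gate of 6 UMIs and 2 without mural-gate nuclei.

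The gate held 3.75%, 3.41%, 4.24% and 3.86% of nuclei after thinning, 4.45%, 4.33%, 4.76% and 4.82% on Flt1 and Adgrl4 alone, and with all barcodes kept 5.22% for cortex AAV-VEGF-C and 6.51% for striatum AAV-CTRL. In the split by Plvap, thinning left 0 barrier genes of 10 and 0 fenestrated genes of 2, with few Plvap-positive nuclei left to compare. Where a segment needed at least 2 UMIs of its list, 0 genes differed arterial over capillary, 0 venous over capillary and 1 venous over arterial. Plvap gave 9 to 30 UMIs in the gate of a library, which limits every statement on it.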
